A study of Homo sapiens with 4 samples.

Results

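The 20 Mb of chromosome 7 between 76 and 96 Mb (GRCh38) held 880 of the 12874 BRD8 peaks of SW480 cells and 96 of the 22303 BRD8 peaks of HCT116 cells. Members were taken by position: a peak belongs to the stretch when its summit lies above 76 Mb and at or below 96 Mb. The limits were drawn around the peak positions of these same lists. The counts, densities and shares of overlap between lines below therefore describe the stretch and carry no test. SW480 and HCT116 are established human colorectal cancer lines, grown here in Leibovitz L-15 and McCoy 5A medium, both with 10% fetal bovine serum. Of the 4 libraries, each line gave 1 from BRD8-bound chromatin (ChIP) and 1 from its input chromatin. Chromatin of both lines was fixed for 10 minutes in formaldehyde and cut with micrococcal nuclease, and BRD8 was precipitated with a polyclonal antibody. With 1 ChIP library per line there is no replicate check on any difference between them, and every interval covers counting error within these libraries only.

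BRD8 is a bromodomain protein of the TIP60/NuA4 complex, which acetylates histones and remodels chromatin at gene starts. A bromodomain is a fold that binds acetylated lysines. The stretch lies mostly in band q21 of chromosome 7, where a few very long genes of cell guidance and synapses, such as the semaphorin genes, MAGI2 and CACNA2D1, are set between short clusters of housekeeping genes, and it also carries CDK6, the G1 cyclin-dependent kinase. RefSeq places 262 genes on it, 89 of them protein-coding. That is 4.45 coding genes per Mb, against 6.10 on the rest of chromosome 7.

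Promoter sequences of a few genes of the stretch, chosen by their peaks, are shown first. Each is the RefSeq promoter window of 1 gene (GRCh38.p14), from 250 bases before the gene start to 50 bases from it, written 5′ to 3′ on the gene's strand, with CpG dinucleotides in capitals. DBF4 and DMTF1 are shown because regions of both lines cover their starts, PON2 because the summits of both lines lie 125 bp (SW480) and 116 bp (HCT116) from its start. ASB4 is shown because the SW480 peak with the highest fold in the stretch covers this start, which lies inside the gene, with no HCT116 region there. MAGI2 is shown because it held the most SW480 summits of any gene in the stretch and no peak at its ends. Neither line had a region over the MAGI2 start, and the nearest SW480 summit lay 11964 bp away. No window with an HCT116 summit alone within 1 kb is shown.
DBF4 (chr7:87876243-87876542, plus strand): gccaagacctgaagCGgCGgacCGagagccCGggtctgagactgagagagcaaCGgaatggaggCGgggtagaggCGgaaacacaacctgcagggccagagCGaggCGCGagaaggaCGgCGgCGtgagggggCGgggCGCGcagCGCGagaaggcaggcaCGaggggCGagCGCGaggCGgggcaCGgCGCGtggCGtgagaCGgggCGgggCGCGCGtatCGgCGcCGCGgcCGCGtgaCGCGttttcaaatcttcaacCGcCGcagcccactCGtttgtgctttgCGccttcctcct
DMTF1 (chr7:87152203-87152502, plus strand): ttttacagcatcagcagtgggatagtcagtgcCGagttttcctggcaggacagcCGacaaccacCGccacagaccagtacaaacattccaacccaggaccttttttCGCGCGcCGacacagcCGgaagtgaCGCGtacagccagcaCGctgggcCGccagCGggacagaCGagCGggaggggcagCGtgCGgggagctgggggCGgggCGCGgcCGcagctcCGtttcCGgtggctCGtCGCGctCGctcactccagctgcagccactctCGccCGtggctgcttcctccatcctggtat
PON2 (chr7:95434979-95435278, minus strand): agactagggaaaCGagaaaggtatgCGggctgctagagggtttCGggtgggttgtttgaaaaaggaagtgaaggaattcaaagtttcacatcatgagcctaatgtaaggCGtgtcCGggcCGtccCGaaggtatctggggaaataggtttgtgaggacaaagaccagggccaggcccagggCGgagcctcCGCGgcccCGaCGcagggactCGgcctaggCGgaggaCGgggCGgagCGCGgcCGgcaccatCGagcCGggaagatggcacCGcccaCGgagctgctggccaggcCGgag
ASB4 (chr7:95485693-95485992, plus strand): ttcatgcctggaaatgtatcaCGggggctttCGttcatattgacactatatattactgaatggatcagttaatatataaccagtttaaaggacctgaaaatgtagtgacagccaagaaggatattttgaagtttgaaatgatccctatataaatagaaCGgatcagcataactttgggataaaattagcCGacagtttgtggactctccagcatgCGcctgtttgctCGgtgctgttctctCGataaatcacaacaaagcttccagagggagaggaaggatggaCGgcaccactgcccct
MAGI2 (chr7:79453618-79453917, minus strand): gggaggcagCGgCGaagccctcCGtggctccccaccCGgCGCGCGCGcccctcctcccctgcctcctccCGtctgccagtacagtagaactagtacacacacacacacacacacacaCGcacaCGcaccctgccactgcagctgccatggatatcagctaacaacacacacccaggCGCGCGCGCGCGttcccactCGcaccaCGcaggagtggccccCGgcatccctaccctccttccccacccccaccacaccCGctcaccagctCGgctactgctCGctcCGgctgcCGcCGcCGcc
The window of DBF4 holds 44 CpG, that of DMTF1 29 and that of PON2 24. The window of ASB4 holds 8 CpG at a GC content of 42.0%, and that of MAGI2 holds 27 CpG at 69.3%.

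SW480 carried BRD8 peaks through nearly the whole stretch, at 44.0 summits per Mb (95% Poisson interval 41.1 to 47.0), while HCT116 had 4.80 per Mb (3.89 to 5.86). The rest of chromosome 7 had 7.26 summits per Mb in SW480 and 7.31 in HCT116. These totals hold local differences in both directions: 107 to 108 Mb had 70 SW480 and 8 HCT116 summits, and 73 to 74 Mb had 6 and 30. The stretch took 6.84% (exact binomial interval 6.41 to 7.29) of the SW480 list and 0.43% (0.349 to 0.525) of the HCT116 list. Of the SW480 peaks on chromosome 7, 46.5% lay in the stretch, and of the HCT116 peaks 8.62%. The ratio of the 2 list shares, SW480 over HCT116, was 15.9 (12.9 to 19.6). With a −log10 q of at least 5, the stretch held 137 SW480 and 48 HCT116 peaks, and the ratio, added as a check after seeing the data, was 6.37 (4.59 to 8.84).

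Windows of 20 Mb were set every 1 Mb along all chromosomes to give this ratio a scale. Over 2457 windows the median ratio was 0.930, and 11.7% of windows had a SW480 share at least 2 times the HCT116 share. The stretch ranked 4 by this ratio and 3 by its SW480 count. Among the 2418 windows that do not touch it, the highest ratio was 10.5, at 21 to 41 Mb of chromosome 12, with 467 SW480 and 77 HCT116 summits. In HCT116 the stretch was ordinary, with 96 summits beside a median of 125 per window. The median window held 70 SW480 summits.

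**Figure D1:**
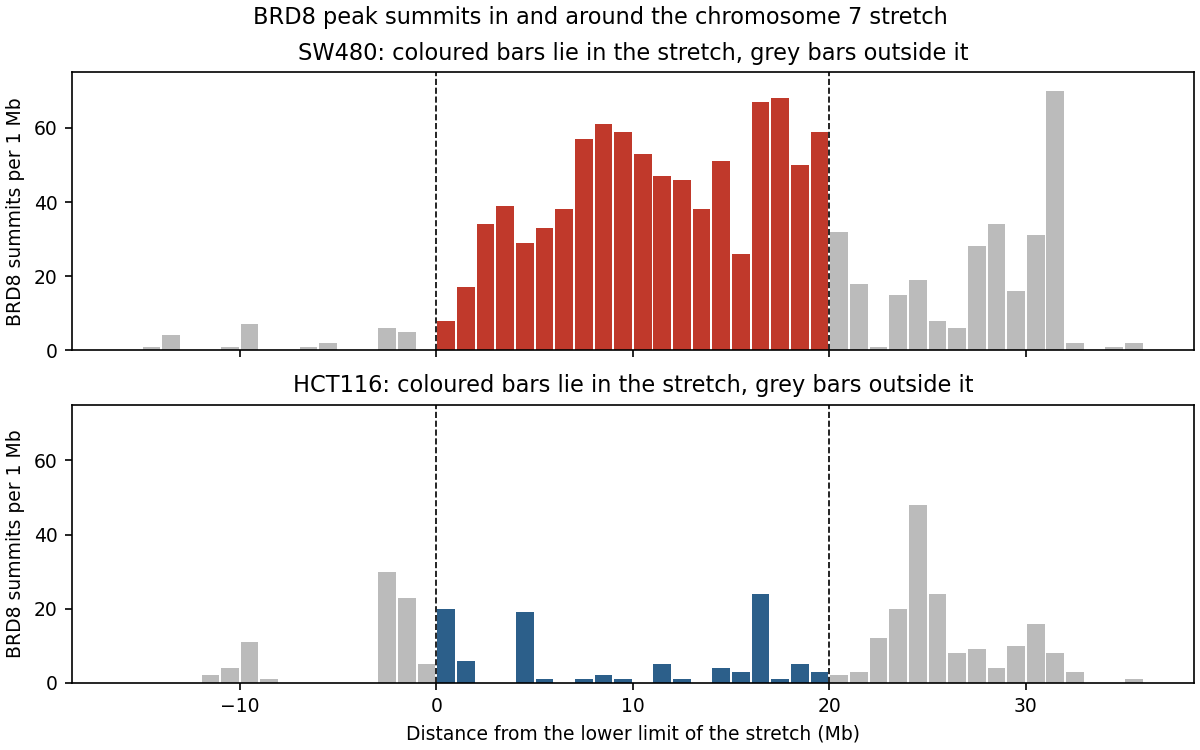
BRD8 summits per 1 Mb of chromosome 7 (y axis, SW480 above HCT116) by distance from the lower limit of the stretch in Mb (x axis), with the stretch in colour between dashed lines and its flanks in grey. SW480 bars run from 8 to 68 across the stretch, and HCT116 bars from 0 to 24.

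Within the stretch SW480 exceeded HCT116 in 19 of 20 bins of 1 Mb. The SW480 bins held from 8 to 68 summits with a median of 46.5, and the HCT116 bins from 0 to 24 with a median of 1.5. The exception was the first bin, from 76 to 77 Mb, with 8 SW480 and 20 HCT116 summits. HCT116 had no summit at all in 5 bins. Across the 20 bins the Spearman rho of summits with the number of coding genes touching the bin was 0.07 for SW480 and 0.81 for HCT116. With the percent of the bin inside genes of any type, rho was 0.03 for SW480 and 0.14 for HCT116. Bins of 1 line share their library, so these values are a description.

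The limits were not alike. The last SW480 peak below 76 Mb lay at 74657319, beside GTF2I, with a pileup of 66 fragments, and no SW480 summit lay between 75 and 76 Mb. The first peaks above the limit were narrow ones at 76047728 and 76048271, at the head-to-head starts of STYXL1 and MDH2, with pileups of 46 and 74. The pileup is the number of overlapping ChIP fragments at the summit, recovered from the deposited fold and p, and the background is the local level the peak caller expected there. SW480 density stepped up over the next bins, with 17 summits from 77 to 78 Mb and 34 from 78 to 79 Mb. At the upper limit the SW480 peaks ran on: the last one inside (95983927) and the first one outside (96053144) both lie in DYNC1I1, a dynein intermediate chain gene, and both had a pileup of 19. The bins from 96 to 97 and 97 to 98 Mb held 32 and 18 SW480 summits, and the bin from 98 to 99 Mb held 1. In HCT116 the last peak below 76 Mb lay at 75916148 with a pileup of 18 and the first above it at 76048258 with 61. Its last peak below 96 Mb lay at 95596856 with 27 and the first beyond it at 96321627, at SLC25A13, with 43.

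SW480 peaks were spread, whereas HCT116 peaks came in a few groups. The median distance between successive SW480 summits was 12876 bp (interval 11054 to 14445), and 98.3% of distances were below 100 kb. The HCT116 median was 25736 bp (4775 to 58520), or 50443.5 bp with the limits moved 1 Mb inwards, and 68.4% of distances were below 100 kb. On the rest of chromosome 7 the medians were 29379 bp in SW480 and 14710 bp in HCT116. Distances below 5 kb made up 27.8% in SW480 and 40% in HCT116, and the coefficient of variation was 1.64 and 2.20. Among peaks with a −log10 q of at least 5 the median distances were 80336.5 bp (43768 to 101552) in SW480 and 80408 bp (56881 to 161944) in HCT116. These medians were close although the stretch then held 137 SW480 and 48 HCT116 peaks, so they do not show equal density.

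Each of the long intervals without an HCT116 summit was filled in SW480. From 77799547 in PHTF2 to 80084850, an interval of 2285 kb that includes all of MAGI2, SW480 had 77 summits. From 85187018 in SEMA3D to 87059918 at ELAPOR2, 1873 kb, it had 103. The intervals of 2002 kb up to PCLO and 1992 kb from SRI to STEAP2 held 70 and 88 SW480 summits. The widest interval without a SW480 summit was 796 kb, from 76393571 at SSC4D to 77189192 in CCDC146, and it held 3 HCT116 summits. In bins of 100 kb, 12 of 200 were empty in SW480 and the median bin held 4 summits. The fullest bins held 13 and lay at 84.1 to 84.2 Mb, in SEMA3A, and at 95.4 to 95.6 Mb, in and beside ASB4. HCT116 gathered 15 summits between 76.3 and 76.4 Mb, in and around HSPB1, YWHAG and SSC4D, 10 between 80.1 and 80.3 Mb, at GNAI1 and beside it, and 12 in the 100 kb bins from 92.6 and 92.8 Mb, in CDK6.

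The SW480 peaks of the stretch were narrow and low. Their median width was 305.5 bp (interval 299 to 316), against 406 bp in the rest of the SW480 list, and the 880 regions together covered 340.1 kb. HCT116 peaks of the stretch had a median width of 611.5 bp (450 to 725), against 596 bp in the rest of its list. The median SW480 pileup was 17 fragments (17 to 18), against 27 in the rest of the list and 22 on the rest of chromosome 7. It was 21.5 fragments (20 to 24) in HCT116, against 24 in the rest of its list. Pileups of 20 fragments or fewer made up 82.7% of the SW480 peaks in the stretch and 28.7% of the rest of the list. In HCT116 these shares were 42.7% and 34.5%. Median fold, the deposited ratio of ChIP signal to local background, was 3.34 in the SW480 stretch and 3.33 in the rest of the list, so fold did not separate the stretch where pileup and width did.

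The recovered background of most SW480 peaks in the stretch was the lowest the caller uses. That level, 4.09 fragments in SW480 and 3.75 in HCT116, is a genome-wide level that applies where the nearby input signal is no higher. It was the background of 615 of 880 SW480 peaks in the stretch (69.9%, 66.7 to 72.9), and of 19.3% in the rest of the list and 29.1% on the rest of chromosome 7. In HCT116 it applied to 30.2% of the stretch (21.3 to 40.4) and to 10.9% of the rest of the list. At this one level the fold follows from the pileup alone: 15 fragments give a fold of 3.15 and 23 give 4.72. The SW480 values therefore lie on a few steps, and 101 peaks share the pileup of 15 at the lowest background.

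**Figure D2:**
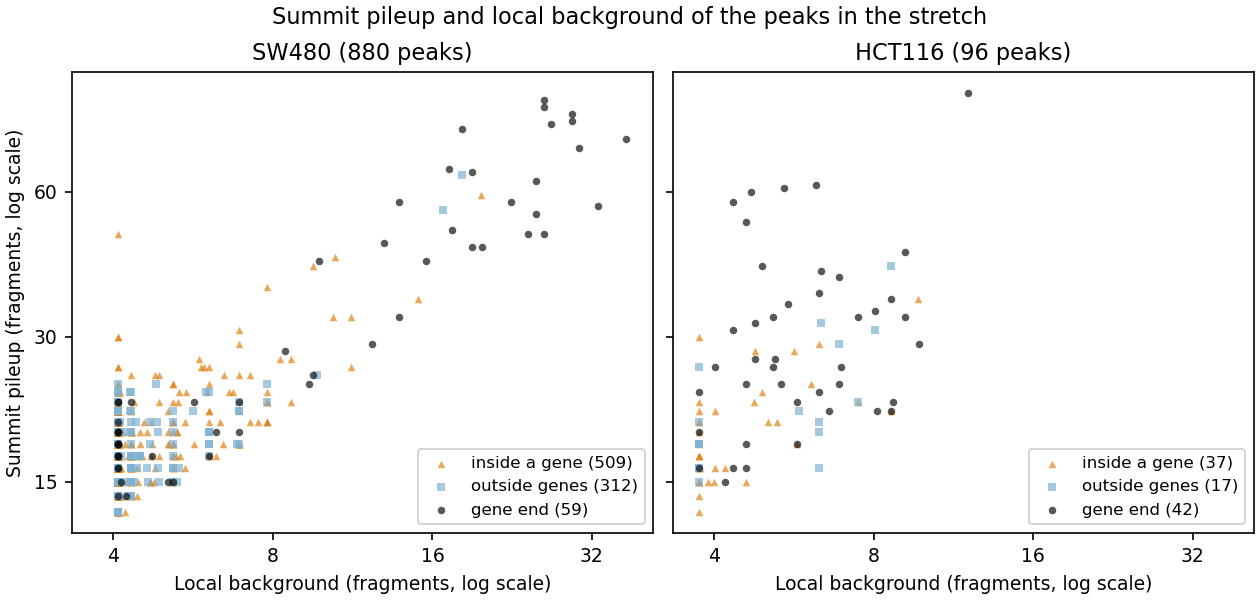
Summit pileup (y axis) against local background (x axis), both in fragments on log scales, for each SW480 peak (left) and HCT116 peak (right) of the stretch, marked by position. Most SW480 peaks stand in a column at the lowest background of 4.09 fragments, and a separate arm of gene-end peaks reaches a pileup of 93.

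The same held among peaks of like kind. Of SW480 peaks away from gene ends and without an HCT116 overlap, 806 lay in the stretch and 4918 elsewhere. Those in the stretch had a median pileup of 17, a median width of 304 bp and the lowest background in 73.2% of cases, against 20, 326 bp and 36.7% for those elsewhere. The 806 were 14.1% (13.2 to 15.01) of all such SW480 peaks, while the stretch held 0.39% of the corresponding HCT116 peaks. In the chromosome 12 window named above, SW480 peaks had a median pileup of 19, a median width of 340 bp and the lowest background in 46.5% of cases.

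Few SW480 peaks of the stretch were shared. The stretch was drawn from these same lists and holds 880 SW480 and 96 HCT116 peaks. A low shared share in SW480 and a higher one in HCT116 follow in part from those counts, so the shares below are a description. Of the 880, 40 (4.55%, 3.27 to 6.14) overlapped an HCT116 region by at least 1 bp, while 49.1% of the SW480 list did. The chromosome 12 window was close to the stretch in this, with 6.42% (4.38 to 9.04) of its SW480 peaks shared and 7.28% at gene ends. In HCT116, 33 of 96 peaks (34.4%, 24.98 to 44.8) met a SW480 region, beside 24.2% of the HCT116 list. Of the 6550 SW480 peaks without an HCT116 overlap, 12.8% (12.02 to 13.7) lay in the stretch. Sharing was most common at gene ends, in the stretch as in the rest of the list. In the stretch 25 of 59 SW480 gene-end peaks overlapped an HCT116 region (42.4%), 13 of 509 inside genes (2.55%) and 2 of 312 outside genes (0.64%). In the rest of the SW480 list these shares were 84.6%, 31.1% and 21.7%. A gene-end peak is one with its summit within 1 kb of either end of an annotated gene, and the other classes hold the remaining summits between gene ends and outside all genes.

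Most SW480 summits of the stretch lay inside genes, away from gene ends. Genes of any type cover 59.4% of the stretch. That coverage counts every base between gene ends, whereas the shares inside genes leave out summits within 1 kb of an end, so the measures are not alike. In SW480, 57.8% of summits (54.5 to 61.1) were inside genes, 35.5% (32.3 to 38.7) outside and 6.70% (5.14 to 8.56) at gene ends. In the rest of the SW480 list gene ends took 42.8%. In HCT116, 38.5% of stretch summits were inside genes, 17.7% outside and 43.8% (33.6 to 54.3) at gene ends, against 47.2% at gene ends in the rest of its list.

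Gene-end peaks of SW480 were of 2 kinds, set by which end they marked. At 32 of the 59 the summit was within 1 kb of a gene start, and these had a median pileup of 49.5 fragments and a median background of 18.6, with 23 of 32 overlapping HCT116. The other 27, at a far gene end or at a gene whose start RefSeq's windows do not give, had a median pileup of 18 and a median background of 4.09, with 2 overlapping. In HCT116, 37 of 42 gene-end peaks were within 1 kb of a start, with a median pileup of 27 and a background of 5.21. SW480 peaks of more than 40 fragments numbered 29 in the stretch, of which 23 were at gene ends and 26 overlapped HCT116.

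In numbers of coding genes with one at either end, gene-end peaks were about as common in both lines, unlike peaks elsewhere. Of 89 coding genes, 34 had a gene-end peak in SW480 (38.2%) and 39 in HCT116 (43.8%), and 24 had one in both. Over all coding genes these shares were 22.1% and 44.0%. The end can differ between lines, as at ELAPOR2 and PDK4, where the SW480 peak lay at the far end and the HCT116 peak near the start. Of gene-end peaks, 27 of 59 in SW480 and 5 of 42 in HCT116 were not within 1 kb of a given start. Near starts, 12 promoter windows had a SW480 summit alone and 27 an HCT116 summit alone. Of the 21 listed housekeeping and organelle genes, 13 had a gene-end peak in SW480 and 16 in HCT116.
CYP51A1, the sterol demethylase of cholesterol synthesis, had the highest pileups of both lines in the stretch, 93 fragments in SW480 and 96 in HCT116, on backgrounds of 25.9 and 12.05. FAM133B had 84 and 60 fragments on backgrounds of 29.4 and 4.69, and fold was 2.80 in SW480 and 10.7 in HCT116. At the head-to-head starts of DBF4, the activating subunit of the CDC7 kinase, and SLC25A40, a mitochondrial carrier, HCT116 had 1 region of 3636 bp with 57 fragments on a background of 4.34. SW480 had 3 separate regions overlapping it, with 54, 81 and 27 fragments on backgrounds of 25.1, 18.2 and 5.80. At DMTF1, a transcription factor of the ARF and p53 pathway, SW480 had its second widest region of the stretch, 4180 bp with 67 fragments, and HCT116 one of 3236 bp with 62. PON2, an intracellular lactonase of the paraoxonase family, had 83 and 52 fragments, and at its neighbours PON1 and PON3 both lines lacked one.

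At most other shared starts the pileup was higher in SW480, as in 20 of all 25 overlapping pairs at gene ends. At STYXL1 and MDH2 SW480 had separate regions of 46 and 74 fragments, over 1 HCT116 region of 61. Of the CLDN12 regions, 1 had 25 fragments in SW480 and 31 in HCT116. GTPBP10, a GTPase of the mitochondrial ribosome, had 90 fragments in SW480 and 45 in HCT116. The head-to-head pair ANKIB1 and KRIT1 had 87 in its highest SW480 region and 29 in its lowest, over an HCT116 region of 40. The head-to-head pair TMEM60 and PHTF2 had 77 and 34 fragments, with a SW480 background of 37.2, the highest in the stretch, and an HCT116 background of 8.03. YWHAG, which encodes a 14-3-3 adaptor, had 66 and 42. CDK6 had a peak near its start in both lines, with 63 and 29 fragments and folds of 2.45 and 2.79. At GATAD1 the fragments were 49 and 26 and the folds 1.86 and 5.38.

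Other gene ends had a peak within 1 kb in 1 line. In HCT116 they included ADAM22, a synaptic membrane protein, at 32 fragments, MTERF1, a mitochondrial transcription factor, at 41, and TMEM243 at 36. GNAI1, an inhibitory G protein subunit, had 23, PCLO, a presynaptic scaffold, had 24, and FZD1, a Wnt receptor, had 18. In SW480, GNG11, a G protein subunit, had 33 fragments near its start, and VPS50, a subunit of an endosomal tethering complex, had 57 at its start on a background of 22.5. Those of SAMD9L, with 14 and 20 fragments on the lowest background, lay at the far end of the gene.

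Across the 40 overlapping pairs both pileup and background were higher in SW480. Pileup was higher in SW480 in 33 of 40, with a median of 48 fragments in SW480 and 33 in HCT116 and a median ratio of 1.34 (interval 1.19 to 1.52). Background was higher in 39 of 40, with medians of 16.97 in SW480 and 4.92 in HCT116 and a median ratio of 2.46 (2.11 to 3.50), and fold was lower in SW480 in all but 7. Several pairs share 1 HCT116 region, so they are not independent. Over the 6284 pairs in the rest of the list the median pileup ratio was 0.913 and the background ratio 1.61. The pairs on the rest of chromosome 7 resembled those of the stretch, with a pileup ratio of 1.35 (1.27 to 1.40) and a background ratio of 2.41 (2.20 to 2.64). Among 23 chromosomes, with the stretch left out, chromosome 7 ranked 2 for both ratios, after chromosome 20 with 1.38 and 2.42.

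**Figure D3:**
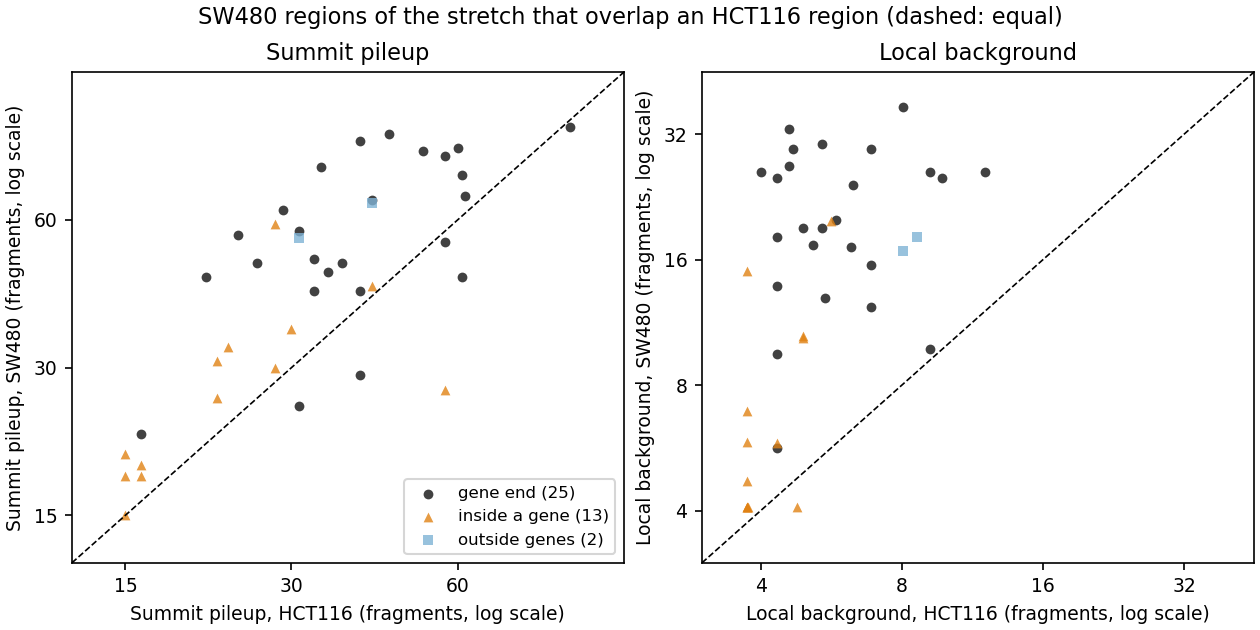
Summit pileup (left) and local background (right) in fragments, SW480 on the y axis against HCT116 on the x axis, both on log scales, for the 40 SW480 regions of the stretch that overlap an HCT116 region. Points above the dashed line are higher in SW480: 33 of 40 for pileup and 39 of 40 for background.

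The SW480 summits inside genes reached every long gene. All 15 coding genes of at least 200 kb that touch the stretch held SW480 summits, from 7 to 49 each, while 9 of the 15 held none in HCT116. Of the 1381 such genes elsewhere, 64.1% held no SW480 summit and 55.1% no HCT116 summit. The median density in the 15 was 4.22 SW480 summits per 100 kb (3.41 to 6.28), against 0 for those elsewhere. By SW480 density all 15 were among the first 40 of 1396 genes of this length, and 8 were among the first 20. Gene counts cover whole genes, including the part of DYNC1I1 beyond 96 Mb. Of all 89 coding genes, 57 (64.0%) held a SW480 summit between their ends and over 1 kb from both, and 17 (19.1%) an HCT116 summit. Over all coding genes the shares were 12.5% and 23.0%.

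**Figure D4:**
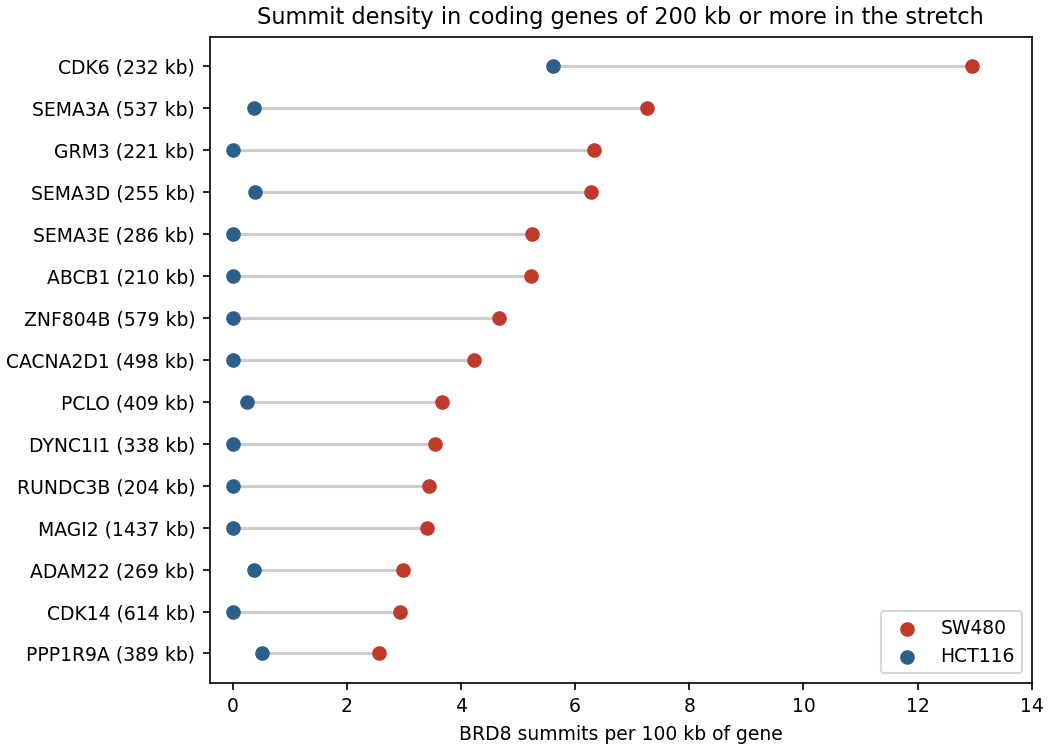
BRD8 summits per 100 kb of gene (x axis) in SW480 and HCT116 for the 15 coding genes of at least 200 kb that touch the stretch (y axis, with gene length in kb). SW480 ranges from 2.57 in PPP1R9A to 12.95 in CDK6, and HCT116 from 0 in 9 genes to 5.61 in CDK6.

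The 4 semaphorin genes, whose secreted products steer axons and vessels, all held SW480 summits inside, as did all 15 coding genes of at least 200 kb. Of all coding genes of the stretch, 64.0% did. None of the 4 had a peak within 1 kb of its outer ends in SW480 or HCT116, beside 38.2% and 43.8% of all coding genes of the stretch with one. The HCT116 peak of SEMA3D, at 85187018, covers a start that RefSeq's promoter windows place inside the gene. SEMA3A (83955777 to 84492725) held 39 in SW480 and 2 in HCT116, the highest count of the family. Its SW480 pileups ran from 13 to 30 with a median of 17, and 35 of the 39 had the lowest background. SEMA3D held 16 and 1, SEMA3E 15 and 0, and SEMA3C 7 and 3. The density in SEMA3A was 7.26 per 100 kb, the fourth among the long genes of the genome in SW480. Its summit at 84044360, with a pileup of 30, had a fold of 6.09, which a CDK6 site equalled and the ASB4 region alone exceeded in the SW480 stretch.

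Genes of guidance, adhesion and synapses held 134 SW480 summits over 3758 kb. Their median density, 3.35 SW480 summits per 100 kb, was below the 3.89 of all coding genes of the stretch. Of 10 listed, 9 held SW480 summits inside and 3 HCT116 summits, beside 64.0% and 19.1% of all coding genes of the stretch. Gene-end peaks stood at 1 of the 10 in SW480 and 5 in HCT116, beside 38.2% and 43.8% of all coding genes of the stretch. MAGI2 (78017055 to 79453667), a synaptic scaffold and the longest gene of the stretch at 1437 kb, held 49 in SW480 and 0 in HCT116. The MAGI2 pileups ran from 14 to 23 with a median of 18, 39 of the 49 had the lowest background, and the widest region was 677 bp. CACNA2D1, an auxiliary calcium channel subunit, held 21 and 0, with SW480 pileups from 14 to 20. PCLO held 15 and 1, GRM3, a glutamate receptor, 14 and 0, and DYNC1I1 12 and 0. PPP1R9A, an actin-binding scaffold, held 10 and 2, ADAM22 8 and 1, and GNAI1 3 and 5. GNGT1, a short gene of photoreceptors, held none in either line.

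ZNF804B, a zinc finger gene of 579 kb, held 27 SW480 summits and 0 HCT116 summits, with pileups from 13 to 23. ELAPOR2 held 13 and 0. Of the growth factor and receptor genes, CALCR, the calcitonin receptor, held 16 and 0, at 10.6 per 100 kb, while HGF, the ligand of MET, held 3 and 0, CD36, a fatty acid receptor, 3 and 1, and FZD1 0 in both.

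Among cell cycle genes CDK6 stood out in both lines. CDK6 (92604921 to 92836573) held 30 SW480 and 13 HCT116 summits, and 8 of the 30 overlapped an HCT116 region. It had the highest HCT116 count of any gene in the stretch. SW480 pileups ran from 13 to 63 with a median of 19, and HCT116 pileups from 15 to 36 with a median of 20. The SW480 site with the highest fold in the gene, at 92809533, had 30 fragments, a fold of 6.09 and a width of 1822 bp. It overlapped an HCT116 region with 28 fragments, a fold of 5.02 and a width of 2157 bp. CDK14, a kinase tied to Wnt signalling, held 18 and 0, at 2.93 per 100 kb, above PPP1R9A alone among the 15 long genes. DBF4 and DMTF1 held 3 and 1 each.

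Of 11 transport and lipid genes in the stretch, 9 held SW480 summits away from their ends and 2 HCT116 summits, again beside 64.0% and 19.1%. ABCB1, which encodes the drug efflux pump P-glycoprotein, held 11 and 0, and ABCB4, its phospholipid-transporting neighbour, 4 and 0. PON3 held 4 and 0 and PON1 0 and 0. STEAP2, a metalloreductase, held 2 and 1, STEAP4 2 and 0 and STEAP1 none. Of the interferon-induced pair SAMD9 and SAMD9L, SW480 had 2 and 3 summits and HCT116 none. The 4 listed matrix and imprinted genes span only 126 kb together. COL1A2, the collagen chain, had 1 and 0, SGCE 2 and 0, PEG10 0 and 1, and TFPI2 none. Summits away from gene ends were held by 2 of these 4 in SW480 and 0 in HCT116, beside the same 64.0% and 19.1%.

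ASB4 (95470656 to 95551317), which encodes an ankyrin repeat protein of a ubiquitin ligase, carried the strongest run of SW480 peaks. It held 22 in 80.7 kb, or 27.3 per 100 kb, and none in HCT116. Its main region ran from 95485329 to 95491979 and was the widest of the whole SW480 list at 6651 bp. Its summit had 49 fragments on the lowest background, and its fold of 9.83 and its −log10 q, 30.8, were the highest in the SW480 stretch. The region covers the RefSeq start whose window is shown above, which lies inside ASB4 and not at its outer end, 95470656. The 22 pileups ran from 14 to 49 with a median of 25, against 17 for the stretch, and only 5 of 22 had the lowest background. Together they covered 25.5 kb, against 16.3 kb for the 49 MAGI2 peaks. The regions of 2958 and 2341 bp within ASB4 were the third and the fourth widest of the SW480 stretch.

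Promoter windows with a summit of both lines within 1 kb were rich in CpG. The 172 windows of the stretch, from 135 genes, had a median of 11 CpG, against 14 over all 35116 windows of RefSeq's table. The 29 windows with a summit of both lines had a median of 26 (interval 23 to 29), and none had fewer than 15. The 12 with a SW480 summit alone had a median of 6 (1 to 15), the 27 with an HCT116 summit alone 25 (20 to 30), and the 104 with none 2 (1 to 4). The ASB4 window counts among those with none: a SW480 region covers its start, but the nearest SW480 summit lay 1748 bp away. The 6-base motif GGGCGG, searched on both strands, was in 79.3% of the windows of both lines, 25% with SW480 alone, 74.1% with HCT116 alone and 19.2% with none, and in 44.95% of all windows. A gene can have several windows, which may overlap.

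**Figure D5:**
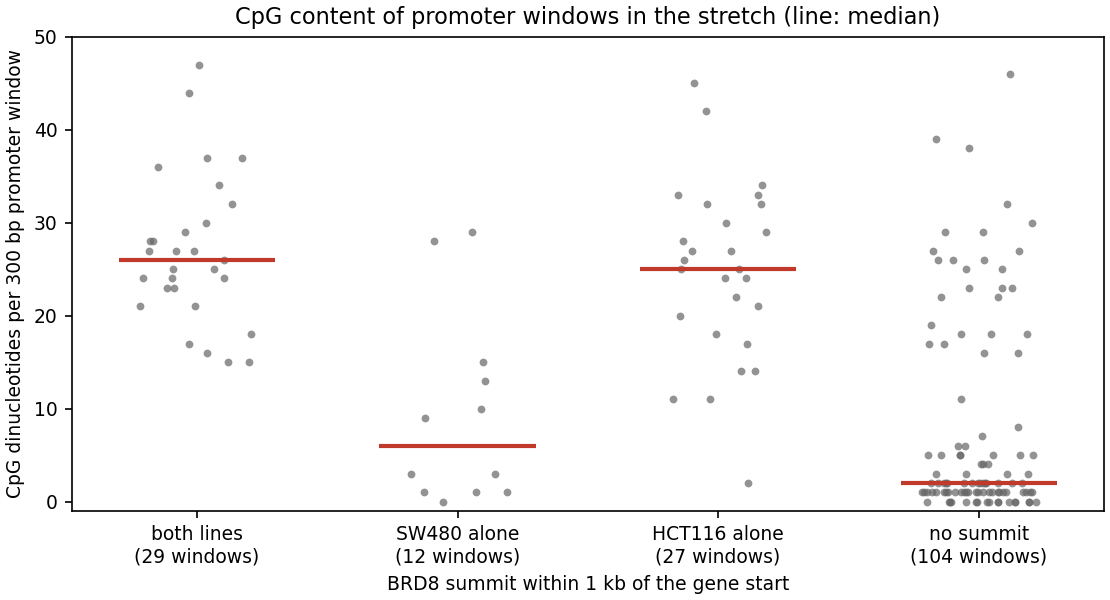
CpG dinucleotides in each 300 bp promoter window of the stretch (y axis), grouped by which line had a BRD8 summit within 1 kb of the gene start (x axis), with the median as a line and points spread sideways for legibility. Medians are 26 with both lines, 6 with SW480 alone, 25 with HCT116 alone and 2 with no summit.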

How the data were processed

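The 2 deposited BRD8 peak lists were used, 1 per ChIP library; the input libraries were used only through the background in those lists. Per the submitters' processing notes, reads were handled with Trimmomatic 0.33, Bowtie2 2.4.1, MACS2 and deepTools on GRCh38, with other settings not stated there. The authors deposited, per peak, a position, a score, the fold (a ratio of ChIP signal to local background with 1 added to each), the −log10 p-value and the −log10 q-value at the summit, with a q threshold of 0.05. Depth per library is not given in these lists. Other contigs and Y were left out (72 SW480 and 9 HCT116 peaks).

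Summit pileup and local background were solved from fold and p (Poisson, pileups up to 2999, relative tolerance 0.0001), which succeeded for 99.98% of SW480 and 99.99% of HCT116 peaks and was tested on simulated data. Genes came from RefSeq (GRCh38.p14; 59094 genes, 19970 coding) and gene starts from its promoter windows. Shares have exact binomial intervals, counts Poisson intervals and medians order-statistic intervals (95%). Python 3.11.15 with numpy, pandas and scipy 1.17.1 was used. No test was made, because each line has 1 library and the rule used peak positions. The stretch, gene lists and the naming rule (10 highest folds and 10 genes with most summits per line, listed genes, widest peaks, gaps, borders) were chosen with earlier results of these data known. Alternatives were stricter q, equal peak numbers, moved limits, other overlap and gene-end rules, tolerance and window size.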

Additional observations from a re-analysis of the deposited data

How the results depend on the processing

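At a −log10 q of at least 2, the SW480 share in the stretch was 6.35%, median spacing 16360 bp and median fold 3.54. At 5 or more, 137 SW480 and 48 HCT116 peaks remained. SW480 values were then 2.54% of the list, 16.8% overlapping HCT116, 15.3% at gene ends, spacing 80336.5 bp, width 343 bp, pileup 22 and fold 4.28. HCT116 values were 58.3% at gene ends, spacing 80408 bp, width 923 bp, pileup 29.5 and fold 4.49. With as many HCT116 peaks as SW480 peaks, HCT116 had 52 in the stretch, 46.2% overlapping, spacing 80408 bp, width 901.5 bp, pileup 28.5 and fold 4.47. With limits 1 Mb further in, shares were 6.32% in SW480 and 0.327% in HCT116. With an overlap of at least 0.5 of each region required, 1.59% of SW480 and 14.6% of HCT116 peaks were shared. SW480 gene-end shares were 11.25% within 2 kb, 4.89% for coding genes and, chosen after seeing the data, 3.86% by gene start; its share inside coding genes was 49.7%. The share ratio, 15.9 as reported, ran from 12.99 to 55.8 in 10 Mb windows. Chosen after seeing the data, it was 6.37 (4.59 to 8.84) at a −log10 q of at least 5, where the HCT116 share was 0.399%. The other 46 values, of 79, stayed within the interval of the reported value or, for counts, within 1.5 times. One of these, the HCT116 median spacing, was 50443.5 bp with limits 1 Mb further in. No paired analysis was possible because each line has 1 library.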
